A study of Mus musculus with 32 samples.

Results

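The genes described here are 10 members of the small proline-rich protein family of the mouse, namely Sprr1a, Sprr1b, Sprr2b, Sprr2d, Sprr2e, Sprr2f, Sprr2g, Sprr2h, Sprr3 and Sprr4. They were found as the array rows that the platform annotation maps to these symbols. Each symbol had exactly 1 row, so 10 of the 19505 genes with a row were followed over all 32 arrays. RNA came from 8 mm punches of the dorsal skin and the ears of NC/Nga mice, which are inbred and known for spontaneous dermatitis. Each tissue was sampled from mice labelled sham and from mice labelled HDM, which gave 4 groups of 8 arrays: sham back skin, HDM back skin, sham ear and HDM ear. The labels do not spell out HDM, do not describe the sham treatment, and give no age, sex or time. Mouse numbers run from 1 to 8 in each group, and the labels do not say whether a number in ear and in back skin is the same animal. A punch is a mixture of cell types, so fewer cells of a type and less RNA per cell cannot be told apart.

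Small proline-rich proteins are short precursors of the cornified cell envelope, the protein shell that replaces the plasma membrane of keratinocytes in the outermost epidermis. Transglutaminases cross-link them through their glutamine and lysine residues to loricrin, involucrin and each other. Their genes lie side by side in the epidermal differentiation complex, and several are known to be low in resting skin and high in wounded, psoriatic or eczematous skin. In the RefSeq order of the mouse complex the Sprr2 genes come first, followed by Sprr1b, Sprr3, Sprr1a and Sprr4. RefSeq lists Sprr2g as a transcribed pseudogene. The Sprr2 genes are near copies of one another and may share probes, so the value of a single Sprr2 row is uncertain.

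The start regions of the members are shown to set the near-copy Sprr2 genes beside the other members. Of the latter, Sprr1b rose with the Sprr2 genes in HDM tissue at both sites, Sprr1a rose in ear only, and Sprr3 and Sprr4 passed at neither site. RefSeq start regions of 300 bases, 250 before and 50 after the gene start, were found for 9 of the 10 members on build GRCm38.p6. The stretch from 210 to 21 bases before the start is printed for 6 of them, 5′ to 3′ on the strand of the gene. Capitals mark exact matches to the AP-1 motif TGANTCA, to the TATA box TATAAA and to TTTGCAT, a part of the octamer motif that POU factors bind. The sequences belong to Sprr2d (chr3:92338930-92339119, plus strand), Sprr2h (chr3:92385475-92385664, plus strand), Sprr1b (chr3:92438800-92438989, minus strand), Sprr1a (chr3:92485902-92486091, minus strand), Sprr3 (chr3:92458741-92458930, minus strand) and Sprr4 (chr3:92500514-92500703, minus strand).
Sprr2d: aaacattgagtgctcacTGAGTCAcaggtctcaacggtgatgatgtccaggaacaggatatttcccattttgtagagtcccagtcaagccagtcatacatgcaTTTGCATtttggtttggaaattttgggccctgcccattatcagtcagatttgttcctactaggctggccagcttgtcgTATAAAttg
Sprr2h: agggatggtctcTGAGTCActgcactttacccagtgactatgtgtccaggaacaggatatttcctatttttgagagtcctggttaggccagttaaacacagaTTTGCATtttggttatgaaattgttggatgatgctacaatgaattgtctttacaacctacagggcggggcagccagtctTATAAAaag
Sprr1b: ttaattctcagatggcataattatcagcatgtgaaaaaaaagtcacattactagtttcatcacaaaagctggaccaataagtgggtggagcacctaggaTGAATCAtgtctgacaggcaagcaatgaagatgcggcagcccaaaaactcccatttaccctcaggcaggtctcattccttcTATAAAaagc
Sprr1a: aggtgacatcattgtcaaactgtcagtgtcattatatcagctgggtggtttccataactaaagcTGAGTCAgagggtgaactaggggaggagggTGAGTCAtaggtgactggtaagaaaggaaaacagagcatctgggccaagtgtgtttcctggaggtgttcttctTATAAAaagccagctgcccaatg
Sprr3: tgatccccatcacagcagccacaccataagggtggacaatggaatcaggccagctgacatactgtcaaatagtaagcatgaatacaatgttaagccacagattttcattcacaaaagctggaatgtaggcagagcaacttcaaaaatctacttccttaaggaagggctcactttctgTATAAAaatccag
Sprr4: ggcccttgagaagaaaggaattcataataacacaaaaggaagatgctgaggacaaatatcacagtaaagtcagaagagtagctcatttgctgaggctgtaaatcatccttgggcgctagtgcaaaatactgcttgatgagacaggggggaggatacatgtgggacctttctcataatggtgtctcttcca

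The 5 Sprr2 start regions held the same 3 matches at nearly the same places. The AP-1 match began 195 bases before the start in Sprr2b, 193 in Sprr2d and Sprr2e, 197 in Sprr2f and 198 in Sprr2h. The TTTGCAT match lay 107 to 111 bases before the start in these 5 genes, and the TATA box began 29 bases before it in each. Sprr1b had its AP-1 match 111 bases and its TATA box 30 bases before the start, and Sprr1a had AP-1 matches at 146 and 116 bases and a TATA box at 43. Sprr3 had a TATA box at 33 bases and no AP-1 match in this window, and Sprr4 had neither. Searched on both strands, the AP-1 letters were present in 7 of the 9 member regions and in 7.81% of 32851 start regions of the same length. The 5 Sprr2 regions among them are near copies, so they are not separate instances. Beyond the members, the proline-rich gene Prr9 also held the AP-1 letters, 138 bases before its start, as did Sprr2i and Sprr2k. TATAAA was present in 8 of 9 and in 13.6% of all regions. TTTGCAT, a motif added after these sequences had been seen, was present in 5 of 9 and in 4.63% of all regions. The STAT motif TTCNNNGAA, the STAT6 motif, whose ends are 1 base farther apart, and the GRHL motif AACCNGTT had no match in the 9 regions, and were present in 8.30%, 6.95% and 2.09% of all regions. The GC box CCNCNCCC matched in Sprr2b, Sprr2h and Sprr4 and in 49.5% of all regions, and the ETS core CGGAA or AGGAA matched in all 9 members and in 78.0%. Over the 300 bases, the 6 pairs of Sprr2b, Sprr2d, Sprr2e and Sprr2f were 63.1% to 88.7% identical, with Sprr2d and Sprr2e the closest pair. Sprr2h was 59.4% to 65.8% identical to these 4 genes, and the 26 remaining pairs of members were 45.3% to 53.1% identical. A match of letters is a description of the sequence and does not show that a factor binds there.

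**Figure D1:**
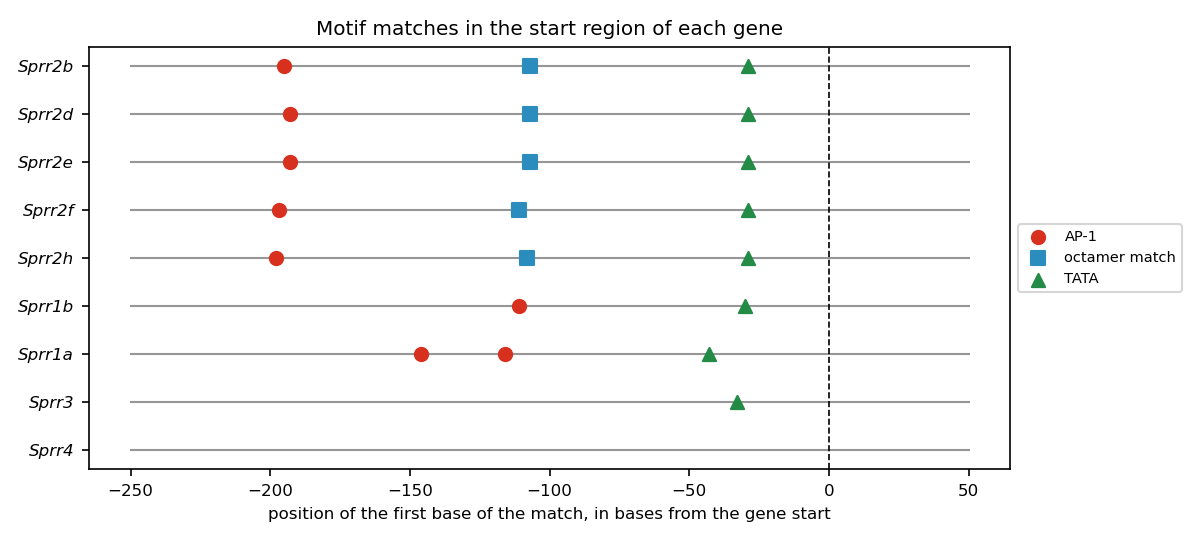
Position of matches to the AP-1 motif (circles), the part of the octamer motif (squares) and the TATA box (triangles) in the start regions of 9 members, as the first base of each match in bases from the gene start (dashed line), with each grey line spanning 250 bases before to 50 bases after the start. The 5 Sprr2 genes carry all 3 matches in the same order, Sprr1b and Sprr1a lack the octamer match, Sprr3 holds only the TATA box and Sprr4 holds none of the 3.

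Values are deposited log2 expression levels and are compared only between groups for 1 gene at a time. Their wide range leaves unknown whether a rescaling followed RMA, and after one, sizes, folds and differences between sites would not be true ones, while directions between groups would hold. Background here means the median negative control of the array, 4.43 to 5.38, and between 54.4% and 62.3% of all rows of an array were above it. The correlation of an array with the mean of its group was 0.975 to 0.994. Keratinocyte markers were high on every array, with a mean of 16.47 to 17.46 over 10 genes and none of them below background. Cartilage markers were 3.38 to 3.79 in back skin, where 7 of 9 were below background on all arrays, and 5.69 to 7.58 in ear. Mice 1 and 2 of sham back skin differed from the other 6 in their cell markers: they gave hair follicle means over 11 genes of 7.93 and 12.48, where the other 6 gave 13.13 to 16.55, and neutrophil means over 7 genes of 8.19 and 8.24, where the other 6 gave 5.58 to 6.35. The members' differences that rest on sham back skin are therefore given with and without these 2 arrays, except for Sprr3, which lies below background. Those of all other genes include these 2 arrays and are not given without them.

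All 6 Sprr2 genes and Sprr1b were higher in HDM than in sham back skin, by 2.88 to 6.54 on the log2 scale, while Sprr1a, Sprr3 and Sprr4 did not pass the test there. In ear the same 7 genes and Sprr1a were higher, by 3.09 to 10.49, and Sprr3 and Sprr4 did not pass. No member passed as lower in HDM tissue at either site. A change was called where the limma fit of all 32 arrays gave an adjusted p under 0.05, by Benjamini and Hochberg over 22206 rows. Of all rows tested, 6.18% were called higher and 8.56% lower in back skin, beside 7 and 0 of 10 members. In ear 16.4% of all rows were called higher and 15.5% lower, beside 8 and 0 of 10 members. The median difference of the members was 4.41 in back skin and 6.96 in ear, and that of all rows was 0.01 and -0.02. With array medians made equal, the numbers of rows called higher and lower in back skin were 2433 and 1392 in place of 1372 and 1901, and the members' counts stayed 7 and 0.

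**Figure D2:**
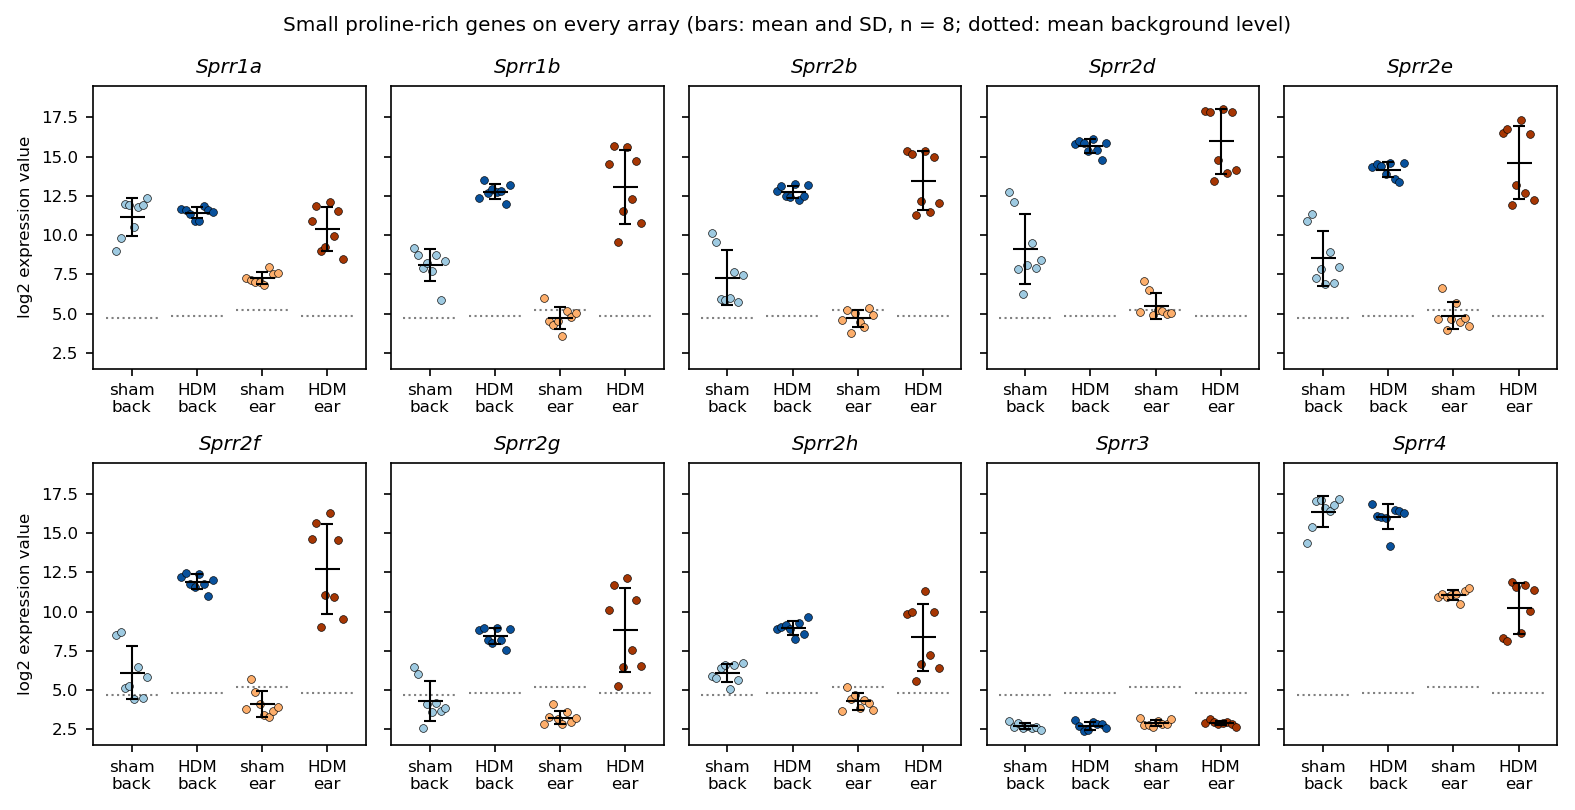
Log2 expression of the 10 members on every array (points), by group on the horizontal axis, with the mean and SD of 8 arrays (bars) and the mean background of the group (dotted line). Sprr2 genes and Sprr1b sit near or below background in sham ear and at or above 5.25 on every HDM array, Sprr3 lies below background in all 4 groups, and Sprr4 separates back skin from ear.

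Sprr2d had the largest difference of the members at both sites. In back skin its lowest, median and highest values were 6.25, 8.25 and 12.75 on sham arrays and 14.76, 15.82 and 16.15 on HDM arrays. In ear they were 4.89, 5.12 and 7.09 on sham arrays and 13.47, 16.31 and 18.01 on HDM arrays. The groups did not overlap at either site, and 2.01 in back skin and 6.38 in ear separated the highest sham from the lowest HDM array. The differences were 6.54 ± 0.75 (SE, n = 8 per group) in back skin (adjusted p = 2.03e-07) and 10.49 ± 0.75 in ear (adjusted p = 5.84e-12). Here and below, the SE of a difference is that of the fit. It pools the spread of all 4 groups, so it is the same at both sites and is not the spread of the 2 groups compared. Without sham mice 1 and 2 the back skin difference was 7.65. Sham ear was close to background, with 2 of 8 arrays above it, and the ear difference was 10.42 with values under background raised to it.

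Sprr2e, whose start region is the closest to that of Sprr2d, ran from 6.88 to 11.35 with a median of 7.91 in sham back skin and from 13.38 to 14.61 with a median of 14.39 in HDM back skin. Its ear values ran from 3.96 to 6.60 with a median of 4.66 in sham mice and from 11.90 to 17.31 with a median of 14.80 in HDM mice. No sham array reached an HDM array at either site. Sprr2e rose by 5.66 ± 0.72 in back skin (adjusted p = 1.27e-06) and by 9.75 ± 0.72 in ear (adjusted p = 1.29e-11), or by 9.20 in ear with values under background raised to it. Without sham mice 1 and 2 the back skin difference was 6.53.

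Sprr2b was 5.75 to 10.13 (median 6.72) in sham and 12.21 to 13.25 (median 12.66) in HDM back skin. Its ear values were 3.79 to 5.36 (median 4.75) in sham and 11.28 to 15.37 (median 13.60) in HDM mice. The groups were apart by 2.08 in back skin and by 5.92 in ear. The rise was 5.45 ± 0.62 in back skin (adjusted p = 2.07e-07) and 8.78 ± 0.62 in ear (adjusted p = 5.84e-12), the latter 8.24 with values under background raised to it. Leaving out sham mice 1 and 2 gave 6.30 in back skin.

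Sprr2f is known for its strong response to oestrogen in the uterus. It ran from 4.43 to 8.72 (median 5.53) in sham and from 10.97 to 12.48 (median 11.89) in HDM back skin, and from 3.27 to 5.73 (median 3.85) in sham and from 9.05 to 16.30 (median 12.80) in HDM ear. All HDM arrays lay above all sham arrays of their site, and the span of 7.25 in HDM ear was the widest of any member in any group. Sprr2f rose by 5.79 ± 0.81 in back skin (adjusted p = 5.85e-06) and by 8.61 ± 0.81 in ear (adjusted p = 2.48e-09). Only 1 of 8 sham ear arrays was above background, and with values raised to background the ear difference was 7.44. In back skin it was 6.63 without sham mice 1 and 2.

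Among the 6 Sprr2 members, Sprr2g and Sprr2h had the smallest differences in back skin, and both were below background on all sham ear arrays. Sprr2g ran from 2.61 to 6.45 (median 3.99) in sham and from 7.55 to 8.96 (median 8.53) in HDM back skin, with 2 of 8 sham arrays above background. In ear it was below background on all sham arrays (2.82 to 4.10) and ran from 5.25 to 12.16 (median 8.84) on HDM arrays. It rose by 4.14 ± 0.71 in back skin (adjusted p = 0.000108), or by 3.40 with values raised to background and by 4.78 without sham mice 1 and 2, and was at least 12.2-fold higher in HDM than in sham ear (adjusted p = 4.68e-07). Here and below, such a bound sets the HDM mean against the background that stands in for the sham values. An adjusted p beside a bound is from the limma fit of the values as deposited and does not test the bound.

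Sprr2h ran from 5.06 to 6.74 (median 6.13) in sham and from 8.26 to 9.64 (median 8.96) in HDM back skin. In ear it was below background on all sham arrays (3.67 to 5.21) and ran from 5.60 to 11.31 (median 8.54) on HDM arrays. The gap between the ear groups was 0.39, the smallest among the members that rose. Sprr2h rose by 2.88 ± 0.54 in back skin (adjusted p = 0.000346), or by 2.80 without sham mice 1 and 2, and was at least 8.98-fold higher in HDM than in sham ear (adjusted p = 8.37e-07).

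The Sprr2 rows that are no members also rose at both sites. Sprr2i rose by 5.39 ± 0.68 in back skin and by 8.40 ± 0.68 in ear, where all 8 sham arrays were above background (adjusted p = 1.17e-06 and 1.10e-10). Sprr2j-ps, a pseudogene, rose by 4.37 ± 0.73 in back skin and was at least 17.2-fold higher in HDM than in sham ear. Sprr2k rose by 2.81 ± 0.68 in back skin and was at least 6.21-fold higher in ear. These genes did not overlap between sham and HDM arrays at either site. Of the 9 further small proline-rich genes looked for, 5 had a row. The others of these 5, the proline-rich genes Prr9 and Prr15l, did not pass in HDM against sham at either site, and Prr15l was below background on all arrays.

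The Sprr1 genes encode the longer relatives of the Sprr2 proteins and differed from each other. Sprr1b ran from 5.84 to 9.17 (median 8.28) in sham and from 11.99 to 13.51 (median 12.76) in HDM back skin. In ear it ran from 3.58 to 6.00 (median 4.66) in sham mice, with 1 of 8 arrays above background, and from 9.57 to 15.66 (median 13.43) in HDM mice. No HDM array overlapped with sham arrays of its site. Sprr1b rose by 4.69 ± 0.63 in back skin (adjusted p = 3.27e-06) and by 8.35 ± 0.63 in ear (adjusted p = 2.37e-11), or by 7.78 in ear with values raised to background. The back skin difference was 4.98 without sham mice 1 and 2.

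Sprr1a was already high in sham back skin. Its values there were 8.96, 9.80, 11.96, 11.92, 10.52, 11.80, 11.92 and 12.35 on the arrays of mice 1 to 8, and 10.88 to 11.86 on HDM arrays, so the groups overlapped. The difference was 0.26 ± 0.46 (adjusted p = 0.771), with a 95% interval from -0.67 to 1.19, and it was -0.33 without sham mice 1 and 2 (adjusted p = 0.665). In ear Sprr1a ran from 6.84 to 7.97 (median 7.19) in sham and from 8.47 to 12.10 (median 10.43) in HDM mice. Those ranges were 0.50 apart, and Sprr1a rose by 3.09 ± 0.46 (adjusted p = 3.78e-06), with all sham arrays above background.

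Sprr3, best known from the oral and oesophageal epithelium, was below background on all 32 arrays, at 2.41 to 3.20. Its differences were 0.03 ± 0.11 in back skin (adjusted p = 0.899) and -0.01 ± 0.11 in ear (adjusted p = 0.958), which at this level says nothing about the RNA. Of 5 markers of oral or oesophageal epithelium, the keratin genes Krt13 and Krt76 were below background in all 4 groups and Krt4 in all but HDM ear. Crnn was below background in HDM ear, and Tgm3, which the epidermis and hair also express, was above it on all arrays. The array means of the 5 genes were 5.71 to 8.38 in sham and 7.30 to 7.80 in HDM back skin, and 4.62 to 5.29 in sham and 5.29 to 6.20 in HDM ear.

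Sprr4 is the member at the far end of the cluster. In back skin it ran from 14.36 to 17.16 (median 16.70) on sham and from 14.19 to 16.85 (median 16.20) on HDM arrays, and in ear from 10.47 to 11.53 (median 11.06) on sham and from 8.15 to 11.88 (median 10.72) on HDM arrays. HDM and sham overlapped at both sites. The HDM minus sham difference was -0.32 ± 0.49 in back skin (adjusted p = 0.733), with a 95% interval from -1.32 to 0.68, and -0.85 ± 0.49 in ear (adjusted p = 0.207), with an interval from -1.85 to 0.15. Without sham mice 1 and 2 the back skin difference was -0.81 (adjusted p = 0.298).

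**Figure D3:**
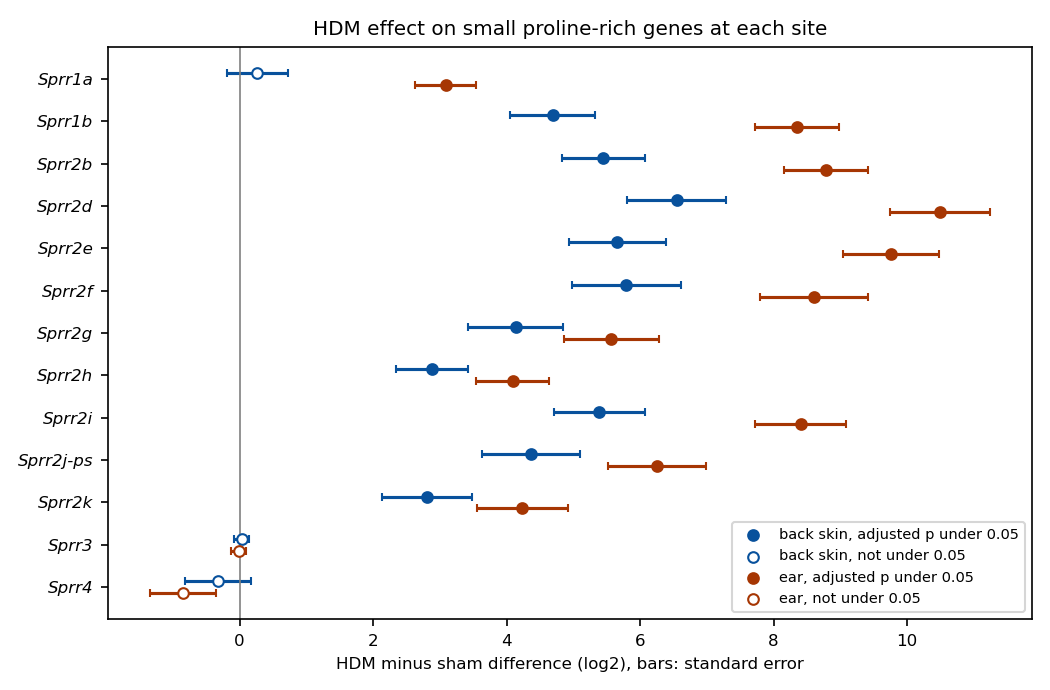
HDM minus sham difference in log2 expression (horizontal axis) with its standard error, in back skin (blue) and ear (red), for the 10 members and Sprr2i, Sprr2j-ps and Sprr2k, where filled circles have an adjusted p under 0.05. Every Sprr2 gene and Sprr1b lies right of 2.8 at both sites, Sprr1a does so in ear only, and Sprr3 and Sprr4 lie near 0, with open circles.

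Whether the HDM effect differed between ear and back skin was tested as the interaction term of the fit. It was larger in ear for 5 members and smaller for 0, beside 6.77% and 3.37% of all rows. Sprr2e differed by 4.09 ± 1.02 (adjusted p = 0.00857), Sprr2d by 3.95 ± 1.06 (adjusted p = 0.0142) and Sprr2b by 3.34 ± 0.88 (adjusted p = 0.0129). Sprr1b differed by 3.66 ± 0.90 (adjusted p = 0.00758) and Sprr1a by 2.83 ± 0.65 (adjusted p = 0.00451). Without sham mice 1 and 2 these differences were 3.22, 2.84, 2.48, 3.37 and 3.42, and all 5 remained called (adjusted p = 0.00029 to 0.0376). Sprr2f differed by 2.81 ± 1.15 (adjusted p = 0.118), and by 3.34 (adjusted p = 0.0393) or 3.27 (adjusted p = 0.0499) without HDM ear mouse 3 or 8, but by 1.97 (adjusted p = 0.296) without sham back mice 1 and 2 and by 1.67 (adjusted p = 0.223) with values raised to background. Sprr2g and Sprr2h, below background in sham ear, differed by 1.43 ± 1.01 and 1.21 ± 0.77 (adjusted p = 0.411 and 0.349), by 0.21 and 0.29 with values raised to background, and by 0.79 and 1.29 without sham back mice 1 and 2. Sprr4 differed by -0.53 ± 0.70 (adjusted p = 0.697), or by -0.04 without these mice.

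The levels in sham mice also differed between the sites. In these mice 7 members were lower in ear than in back skin and 0 higher, where 14.1% of all rows were called lower and 15.6% higher. Sprr4 was lower by the widest margin, with a difference of -5.30 ± 0.49 (adjusted p = 4.25e-10), and its sham ear and sham back arrays were 2.83 apart. Sprr1a differed by -3.87 ± 0.46 (adjusted p = 5.18e-08) and likewise did not overlap, with 0.99 between the groups. Without sham back mice 1 and 2 Sprr4 differed by -5.79 and Sprr1a by -4.46. Sprr2e, Sprr2d, Sprr1b and Sprr2b differed by -3.65 ± 0.72, -3.61 ± 0.75, -3.35 ± 0.63 and -2.60 ± 0.62 (adjusted p = 0.00017, 0.000309, 0.0001 and 0.00151). Without sham back mice 1 and 2 these 4 differences were -2.78, -2.50, -3.05 and -1.75, and all remained called. Sprr2h differed by -1.81 ± 0.54 (adjusted p = 0.0106), and was at least 1.85-fold lower in sham ear with background in place of the sham ear values. Its difference was -1.89 (adjusted p = 0.0166) without sham back mice 1 and 2, and -0.88 (adjusted p = 0.146) with values raised to background. Sprr2f differed by -2.01 ± 0.81 (adjusted p = 0.0618), by -1.16 (adjusted p = 0.319) without those mice and by -0.87 (adjusted p = 0.347) with values raised to background. Sprr2g, above background on 0 of 8 sham ear and 2 of 8 sham back arrays, differed by -1.06 ± 0.71 (adjusted p = 0.291), by -0.42 without those mice and by 0.16 with values raised to background. The mean background was higher in sham ear (5.20) than in sham back skin (4.72), so the sign of the last value says nothing about Sprr2g. The same offset enters the raised values of Sprr2f and Sprr2h. With so few arrays above background, the direction of Sprr2g was not shown.

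In HDM mice the sites differed in 1 member. Sprr4 was lower in ear, with a difference of -5.83 ± 0.49 (adjusted p = 5.55e-11) and 2.31 between the groups, where 11.2% of all rows were called lower and 16.8% higher. Sprr1a differed by -1.04 ± 0.46 (adjusted p = 0.0901), with a 95% interval from -1.97 to -0.11, and by -1.25 (adjusted p = 0.0398) or -1.29 (adjusted p = 0.031) without HDM ear mouse 2 or 5. The 6 Sprr2 genes and Sprr1b differed by -0.60 to 0.81, with intervals that ran from -1.70 to 0.51 for Sprr2h and from -0.85 to 2.47 for Sprr2f. These widths do not show that the levels were alike.

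The order of the 4 groups therefore took 3 forms. For the Sprr2 members and Sprr1b the 2 HDM groups were highest and overlapped. Of the sham groups the ear had the lower mean, but Sprr2f and Sprr2g did not pass between the sham sites. Sprr2g, below background on all sham ear arrays, turned its sign with values raised to background, which was itself higher in sham ear. For Sprr1a the means were 11.42 ± 0.35 (SD) in HDM back skin, 11.15 ± 1.24 in sham back skin, 10.38 ± 1.40 in HDM ear and 7.29 ± 0.38 in sham ear, and only sham ear did not overlap its neighbour in this order. For Sprr4 the means were 16.36 ± 0.99 in sham and 16.04 ± 0.80 in HDM back skin, then 11.06 ± 0.31 in sham and 10.21 ± 1.63 in HDM ear, with a break between the tissues. Prr9, a proline-rich gene that is no member, had the site pattern of Sprr4: it was at least 65.1-fold lower in sham ear than in sham back skin (adjusted p = 9.89e-10). All 11 hair follicle genes were lower in ear as well, with array means of 4.07 to 6.99 in sham ear and 7.93 to 16.55 in sham back skin, and 2 of the 11 were below background on all arrays of either ear group. Their part in the site difference of Sprr4 and Prr9 was not tested.

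The spread within a group also differed between the groups. The median SD of the 10 members was 0.46 in HDM back skin, 0.53 in sham ear, 1.26 in sham back skin and 2.10 in HDM ear. In HDM ear the arrays of mice 1, 2, 5 and 7 were the 4 highest for 8 members, that is for all except Sprr3 and Sprr4. Sprr2d was 17.89, 17.86, 18.01 and 17.84 on these arrays and 13.47, 14.78, 13.93 and 14.15 on those of mice 3, 4, 6 and 8. For Sprr2f the same arrays gave 14.63, 15.64, 16.30 and 14.55 against 9.05, 11.06, 10.92 and 9.51. Sprr1b ran from 14.56 to 15.66 against 9.57 to 12.29, and Sprr1a from 10.89 to 12.10 against 8.47 to 9.96. Sprr4 ran the other way, with 8.15 to 10.05 on mice 1, 2, 5 and 7 and 11.40 to 11.88 on the others, whose values lay beside the 10.47 to 11.53 of sham ear.

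Marker genes of other cells moved with this split of the HDM ear arrays. The neutrophil mean over 7 genes was 11.75 to 12.73 on mice 1, 2, 5 and 7 and 8.82 to 10.22 on the others, with 2 of the 7 genes below background on all 8 arrays. The macrophage mean over 7 genes was 12.14 to 12.71 against 10.51 to 11.68. Sebaceous gland genes gave 12.52 to 13.55 against 14.46 to 14.70, adipocyte genes 6.14 to 6.46 against 7.25 to 7.66, skeletal muscle genes 8.45 to 9.69 against 9.95 to 10.87, and keratinocyte markers 16.47 to 16.71 against 17.13 to 17.25. The HDM effect itself went with higher neutrophil means, which were 5.58 to 8.24 in sham and 9.40 to 10.58 in HDM back skin, 4.32 to 5.96 in sham ear and 8.82 to 12.73 in HDM ear. Among the 7 neutrophil genes, 5 were higher and 1 lower at either site, and Mpo and Elane were below background on all HDM arrays. Other marker lists moved with the HDM effect too. Of all rows, 6.18% were called higher and 8.56% lower in back skin, and 16.4% and 15.5% in ear. In HDM back skin 8 of 8 sebaceous genes (median difference -3.04) and 5 of 8 adipocyte genes were lower. In HDM ear 7 of 7 macrophage genes were higher (median 2.64), and 13 of 13 skeletal muscle genes (median -2.89), 8 of 8 adipocyte genes and 6 of 9 cartilage genes were lower. T cell genes were higher in 2 of 7 cases in back skin and 4 of 7 in ear. The part of these cells in the levels of the members was not tested.

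Among sham back arrays, mice 1 and 2 were the 2 highest for 6 members, namely Sprr1b and every Sprr2 gene but Sprr2h. Sprr2d was 12.75 and 12.10 on them and 6.25 to 9.48 on the other 6 arrays, and Sprr2e was 10.92 and 11.35 against 6.88 to 8.94. The same arrays were the 2 lowest for Sprr1a, at 8.96 and 9.80 against 10.52 to 12.35, and for Sprr4, at 14.36 and 15.40 against 16.39 to 17.16. These are the arrays with the low hair follicle and high neutrophil means given above, whose part in the members' values was not tested. The pooled spread of the fit assumes equal groups, and the standard errors and 95% intervals of all differences rest on it. So do the calls of the interaction, for which the checks that follow were not run. A fit on the 16 arrays of each comparison, and an exact permutation test of mean ranks for every row, gave the same members' calls in HDM against sham at both sites, with adjusted p of 0.00373 in back skin and 0.00203 in ear for each called member in the permutation test, whose smallest possible p is 0.000155 before adjustment.

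**Figure D4:**
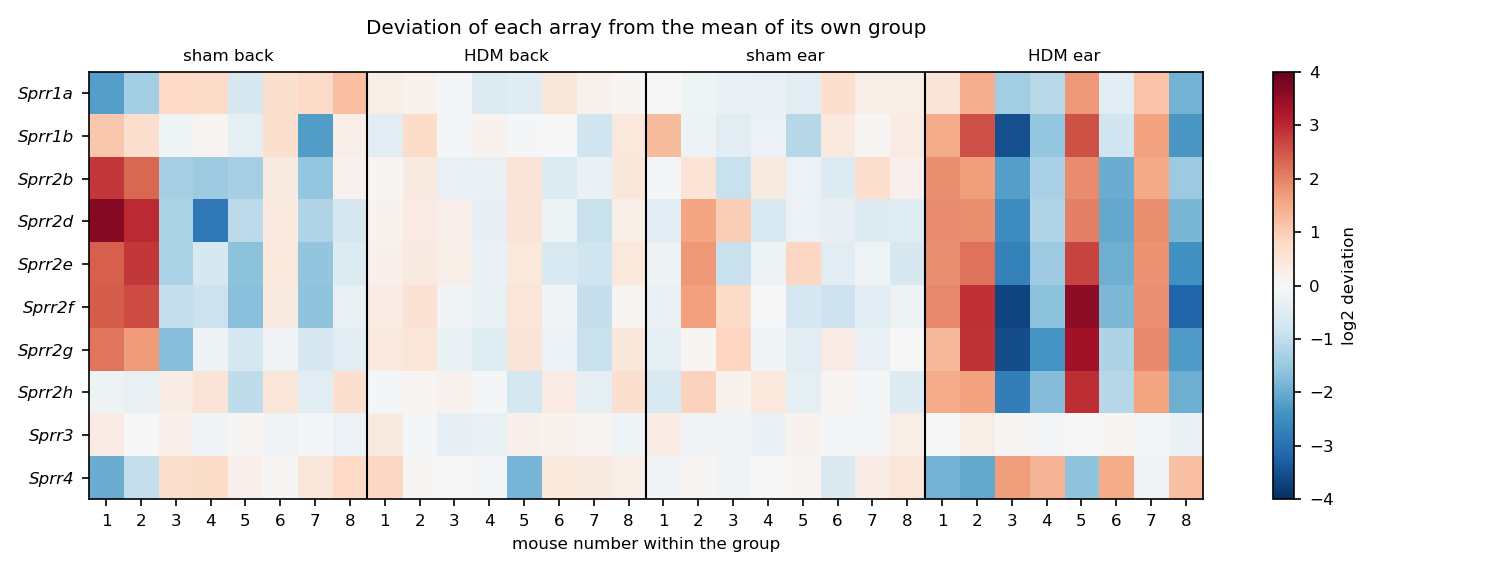
Deviation of every array from the mean of its own group in log2 units (colour, red above and blue below), for the 10 members (rows) and mice 1 to 8 of each group (columns). In HDM ear mice 1, 2, 5 and 7 are red for 8 members and blue for Sprr4, in sham back skin mice 1 and 2 are red for Sprr1b and 5 Sprr2 genes and blue for Sprr1a and Sprr4, and HDM back skin and sham ear are paler.

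Across all 32 arrays the 15 pairs of Sprr2 genes had correlations of 0.903 to 0.990, which mainly reflect the gaps between the groups and may include shared probes. Within HDM ear, where the arrays fall into the 2 sets described, the same pairs had 0.943 to 0.997, and within HDM back skin -0.11 to 0.95 with a median of 0.81. They had -0.23 to 0.99 (median 0.91) within sham back skin. Within sham ear, where most of these values were below background, they had -0.63 to 0.89 (median 0.44). Each member was also set against the mean of the other 9 over the 32 arrays, after standardizing every gene. That correlation was 0.924 to 0.975 for the 6 Sprr2 genes and Sprr1b, 0.681 for Sprr1a, -0.12 for Sprr3 and -0.04 for Sprr4. The 6 non-members most like the mean of the members over the 32 arrays, among 14099 genes above background somewhere, were Stfa3 (0.977), Cnfn (0.976), Stfa1 (0.976), Klk13 (0.975), Cstdc6 (0.972) and Lcn2 (0.971). Stfa1, Stfa3 and Cstdc6 encode cystatin-type protease inhibitors, Cnfn encodes the envelope protein cornifelin, Klk13 a kallikrein-related peptidase and Lcn2 the iron-siderophore binder lipocalin 2. Over the 8 HDM ear arrays alone they were Lce3c (0.995), B2m, Tspan3, Rnf19b, Rptn and Klk9 (0.992 to 0.993). All these values share arrays and group gaps.

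The genes listed as partners of the members in the envelope did not move with the Sprr2 genes as a group. The list is broader than the precursors of the envelope and includes, for example, the hair sheath gene Tchh. Of 41 measured partner genes 13 were higher and 7 lower in HDM back skin, with a median difference of 0.14, and 11 were higher and 11 lower in ear, with a median of -0.24. The shares of all rows were 6.18% higher and 8.56% lower in back skin, and 16.4% and 15.5% in ear. In each group 2 to 5 of the 41 were below background on all arrays. The late envelope genes Lce3a, Lce3c and Lce3d, known from wounded and psoriatic skin, rose by 3.79 ± 0.59, 4.41 ± 0.61 and 4.28 ± 0.61 in back skin and by 6.25, 5.90 and 6.08 in ear, where 2 of 8 sham arrays were above background for Lce3a. Rptn, which encodes the envelope protein repetin, rose by 3.84 ± 0.55 and 6.46 ± 0.55, and its effect was larger in ear (adjusted p = 0.0274 for the difference of 2.62). These values include sham back mice 1 and 2, on which Rptn was 14.87 and 13.46, beside 11.38 to 12.72 on the other sham back arrays. Flg2, a filaggrin relative, fell by 4.10 ± 1.18 in back skin and by 6.79 ± 1.18 in ear. Its ear fall averages 2 sets of HDM arrays, with 5.68 to 9.99 on mice 1, 2, 5 and 7 and 14.81 to 16.48 on the others. Sham ear was 18.00 to 18.53. Lce1m fell by 3.03 ± 0.40 in back skin and fell by 3.45 ± 0.40 in ear, with 4 of 8 HDM back arrays and 6 of 8 HDM ear arrays above background. Hrnr, the hornerin gene, fell by 1.71 ± 0.35 in back skin and differed by -0.66 ± 0.35 in ear (adjusted p = 0.162). Tchh, the hair sheath protein trichohyalin, fell by 1.82 ± 0.65 in ear.

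Transglutaminase genes, whose products cross-link the members, rose in part. Of 6 genes 2 were higher and 0 lower in back skin, and 4 were higher and 1 lower in ear, where all rows gave 6.18% and 8.56% in back skin and 16.4% and 15.5% in ear. Tgm1, the main membrane-bound cross-linker of keratinocytes, ran from 12.78 to 13.95 in sham and from 14.25 to 14.93 in HDM back skin and rose by 1.21 ± 0.23, and in ear by 1.80 ± 0.23. Tgm3, an enzyme of the upper epidermis and hair, differed by 1.46 ± 0.52 in back skin (adjusted p = 0.0517) and rose by 3.94 ± 0.52 in ear (difference between sites 2.48, adjusted p = 0.0259). Tgm5 rose by 1.44 ± 0.35 and 1.89 ± 0.35. Tgm2, the widely expressed tissue enzyme, differed by -0.58 ± 0.35 in back skin (adjusted p = 0.29) and rose by 1.20 ± 0.35 in ear. Tgm7 fell by 1.56 ± 0.42 in ear, from 6 to 4 of 8 arrays above background, and Tgm6 did not pass at either site.

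**Figure D5:**
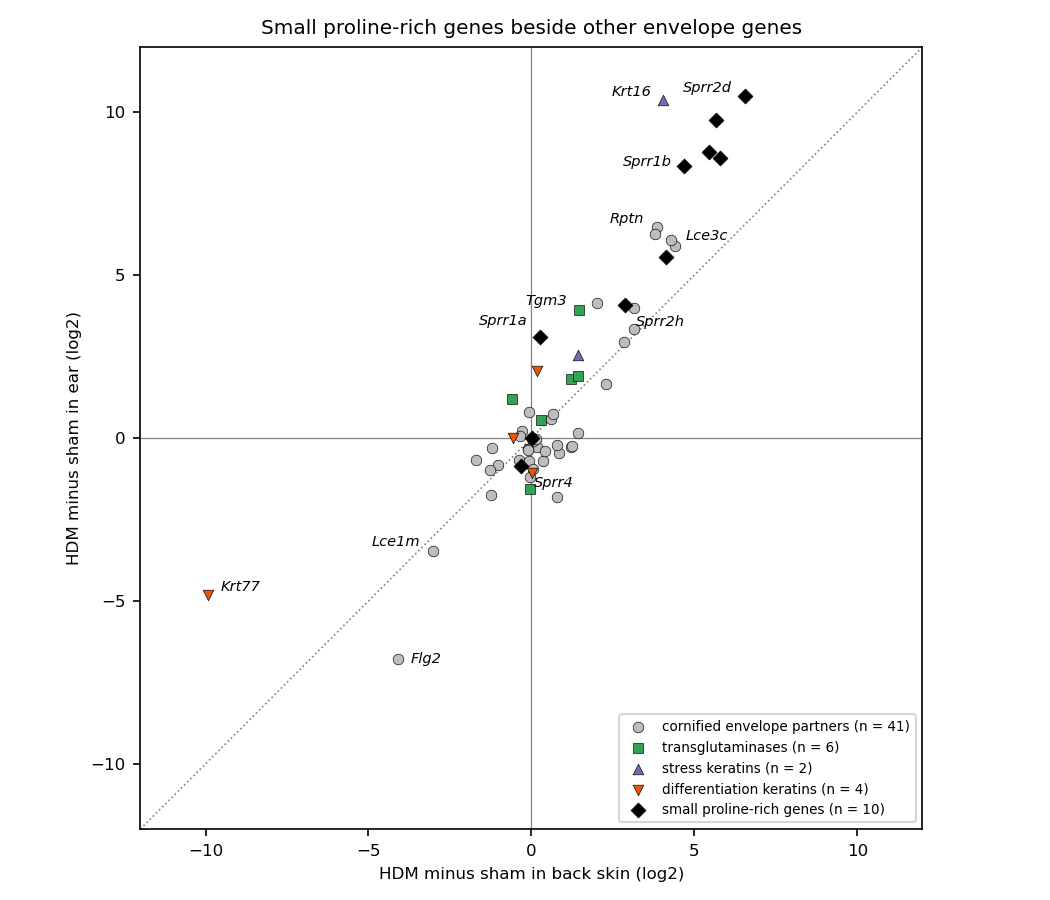
HDM minus sham difference in log2 expression in back skin (horizontal axis) against that in ear (vertical axis) for the 10 members (black diamonds), 41 envelope partners, 6 transglutaminases, 2 stress keratins and 4 differentiation keratins, where the dotted diagonal marks equal differences. The Sprr2 genes and Sprr1b lie above the diagonal at the upper right, beside Krt16, Rptn and Lce3c. Partners lie on both sides of 0 at each site, Sprr3 and Sprr4 lie near 0, and Flg2, Lce1m and Krt77 lie at the lower left.

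Among the keratins, Krt16 and Krt17, the measured stress keratins of hyperproliferative epidermis, rose at both sites. Krt16 ran from 12.62 to 16.49 in sham and from 17.72 to 18.38 in HDM back skin, and from 5.73 to 9.71 in sham and from 16.11 to 18.71 in HDM ear. It rose by 4.05 ± 0.55 and by 10.37 ± 0.55, and the difference of 6.32 between the sites passed (adjusted p = 5.16e-06). Krt17 rose by 1.43 ± 0.30 and 2.54 ± 0.30. Of 4 differentiation keratins, Krt1 rose by 2.06 ± 0.22 in ear and differed by 0.17 ± 0.22 in back skin (adjusted p = 0.666), Krt10 fell by 0.57 ± 0.14 in back skin, and Krt77 fell by 9.93 ± 0.78 in back skin and fell by 4.81 ± 0.78 in ear, with 6 and 7 of 8 HDM arrays above background. Krt10 differed by 0.01 ± 0.14 in ear (adjusted p = 0.971). Krt2 differed by 0.01 ± 0.44 in back skin, where it was above background on 2 sham arrays and 1 HDM array, and by -1.08 ± 0.44 in ear (adjusted p = 0.0596). Of 8 basal keratinocyte genes, 1 was higher and 3 lower in back skin and 1 was higher and 4 lower in ear. Beside these and the proliferation counts below, 6.18% of all rows were higher and 8.56% lower in back skin, and 16.4% and 15.5% in ear. Krt14 rose by 1.12 ± 0.12 and 0.41 ± 0.12, and Krt15, a keratin of basal and bulge cells, fell by 2.26 ± 0.53 and 3.55 ± 0.53. The adhesion genes Dst and Col17a1 fell by 1.68 ± 0.27 and 1.67 ± 0.31 in ear. Proliferation genes were higher in 8 of 14 cases in back skin and in 14 of 14 in ear, among them Birc5, a mitotic survivin, by 1.53 ± 0.30 and 2.62 ± 0.30, and Rrm2, a subunit of ribonucleotide reductase, by 0.94 ± 0.26 and 2.60 ± 0.26. The mitotic kinase genes Cdk1, Aurkb and Aurka rose by 2.34, 2.52 and 1.52 in ear.

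Of 29 transcription factor genes known to act on Sprr or late epidermal genes, 6 were higher and 2 lower in back skin and 9 were higher and 4 lower in ear. Of all rows, 6.18% were called higher and 8.56% lower in back skin, and 16.4% and 15.5% in ear. The counts of lower genes are near these shares, so the falls named below do not set the list apart. Fosl1, a subunit of AP-1, ran from 6.19 to 8.80 in sham and from 7.42 to 8.63 in HDM back skin and differed by 0.37 ± 0.38 (adjusted p = 0.588). In ear it ran from 5.31 to 6.48 in sham and from 7.47 to 10.75 in HDM mice, rose by 3.26 ± 0.38, and the difference between sites was 2.89 ± 0.54 (adjusted p = 0.000803). Junb, a partner subunit, differed by 0.76 ± 0.28 in back skin (adjusted p = 0.0604) and rose by 2.23 ± 0.28 in ear. The ETS family gene Ehf rose by 1.68 ± 0.28 and 2.88 ± 0.28, and Ets2 fell by 1.04 ± 0.16 in back skin and differed by 0.31 ± 0.16 in ear (adjusted p = 0.152). Elf3, another ETS gene, passed as higher at both sites, but was above background on 1 HDM back array and 4 HDM ear arrays only. Of the POU factors, Pou2f3 fell by 1.06 ± 0.36 and Pou3f1 by 0.85 ± 0.32 in ear, and in back skin they differed by -0.55 ± 0.36 and 0.07 ± 0.32 (adjusted p = 0.347 and 0.919). Maf fell by 0.71 ± 0.20 in ear, Trp63, the master regulator of stratified epithelium, fell by 0.50 ± 0.15 in back skin, and Hopx rose by 0.87 ± 0.14 in back skin.

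Of 20 cytokine and growth factor genes known to act on keratinocytes, 10 were higher and 1 lower in back skin and 14 were higher and 0 lower in ear. The shares of all rows were 6.18% higher and 8.56% lower in back skin, and 16.4% and 15.5% in ear. Il1b, the inflammasome-processed cytokine, ran from 5.42 to 9.15 in sham and from 7.97 to 11.91 in HDM back skin and rose by 3.84 ± 0.88. Its values on sham back mice 1 and 2 were 8.86 and 9.15, beside 5.42 to 6.22 on the other sham back arrays. In ear it was below background on all sham arrays and ran from 7.20 to 14.67 in HDM mice, at least 64.9-fold higher (adjusted p = 3.09e-07). The IL-36 genes Il1f6 and Il1f8 rose by 3.78 ± 0.60 and 2.86 ± 0.35 in back skin and by 6.09 ± 0.60 and 2.71 ± 0.35 in ear. Il1f6 ran from 14.91 to 15.49 on HDM ear mice 1, 2, 5 and 7 and from 11.50 to 12.49 on the others. On sham back mice 1 and 2 it was 12.90 and 12.59, beside 8.30 to 10.27 on the other sham back arrays. Il6 was at least 2.33-fold higher in HDM ear, with 4 of 8 arrays above background, and Il20 was at least 2.90-fold lower in HDM back skin, where it was below background on all arrays.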

How the data were processed

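The authors deposited log2 values, for which the submitters' processing notes name RMA (background correction, quantile normalization and a summary of the probes of a row) and the Transcriptome Analysis Console. The sources used here give no tool version, genome build or annotation release. Per the labels, 100 ng of RNA was used per sample, after at least 18 hours in RNAlater. Of 28846 rows, 6640 array controls were left out of the test, and 19572 of the 22206 others carried 1 symbol.

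The 4 group means were estimated over 32 arrays by limma 3.58.1 (R 4.3.3, lmFit then eBayes, two-sided tests, neither covariate nor block), with a script tested on simulated data. The threshold was a Benjamini-Hochberg adjusted p of 0.05. Below background means under the median of the 5222 negative control rows. The number of arrays limits the precision, and p-values measure the spread between arrays labelled as separate mice. Start regions were read from the RefSeq table and aligned with Biopython 1.88, and figures were drawn with matplotlib 3.10.9.

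The members, lists and tests were chosen with earlier results of these data known. Named are all members, all other small proline-rich genes with a row, all stress and differentiation keratins and transglutaminases. From every other list the 3 called genes of largest difference per direction and site could be named, and the 6 genes most like the members' mean. Listed genes with no row (Flg, Krt6a, Krt6b and others) were not analysed here. Alternatives were a block by mouse number, by agent and mouse number, fits on 16 arrays, array weights, equal medians, a floor at background, a filter on dim rows, control rows kept, means over rows of a symbol, sham back mice 1 and 2 left out, every array left out in turn, and exact permutation of mean ranks.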

Additional observations from a re-analysis of the deposited data

Results flagged for a closer look

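In 5 members the HDM effect differed between the sites by the interaction test of limma, and was larger in ear: Sprr2e by 4.09, Sprr2d by 3.95, Sprr1b by 3.66, Sprr2b by 3.34 and Sprr1a by 2.83 on the log2 scale. All 8 HDM ear arrays lay above the sham ear mean for each of them. In back skin all 8 HDM arrays lay above the sham mean for Sprr1b, Sprr2b, Sprr2d and Sprr2e, and 6 for Sprr1a. These counts concern each site alone and not the difference between the sites.

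Of the 40 combinations of a member and a group, 2 held an array far from the other 7, where chance gives about 1 in 20. Sprr1b on sham back mouse 7 was 5.84, below 7.73 to 9.17 on the others, and its gap to the nearest array was 0.568 of the range. Sprr4 on HDM back mouse 5 was 14.19, below 15.95 to 16.85 on the others, with a gap of 0.662 of the range.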

How the results depend on the processing

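For HDM against sham, 7 members were higher in back skin and 8 in ear under every alternative run, and with each array left out in turn. The interaction had 5 members higher, 5 to 6 with single arrays left out. Of 1465 values of single members under an alternative, 1447 did not cross the threshold, 17 came to pass and 1 no longer passed. Of those that passed in the main fit or in the alternative, 0 reversed. Values that passed in neither could turn their sign. For Sprr2g between the sham sites, -1.06 became 0.16 with values raised to background, which was itself higher in sham ear (mean 5.20) than in sham back skin (4.72). For Sprr1a in back skin, 0.26 became -0.33 without sham back mice 1 and 2. With values raised to background, 1 member was lower in ear, 1 was lower in the interaction and 1 was higher in sham ear than in sham back skin. In each case it was Sprr3 (-0.38, -0.50 and 0.48), which lies below background everywhere and there takes the background's own differences. Sprr3 was also the 1 member higher in sham ear with equal array medians (0.33, adjusted p = 0.0208). Between the sites in HDM mice, 2 members in place of 1 were lower with array weights (Sprr1a, -1.28), and 1 to 2 with single arrays left out. In sham mice 6 to 8 members were lower in ear under the alternatives: Sprr2h no longer passed with values raised to background (-0.88), and Sprr2f passed with the mouse number as a replicate block (-2.01, adjusted p = 0.0398), on 16 arrays (0.0147), with array weights (0.044), without dim rows (0.0436), by ranks (0.0223) and without sham back mouse 5 or 7 or sham ear mouse 2. The Sprr2f difference shrank to -1.16 (adjusted p = 0.319) without sham back mice 1 and 2 and to -0.87 (adjusted p = 0.347) with values raised to background. The causes were not tested.

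Same-numbered arrays of 2 groups did not deviate together (correlations of -0.14 to 0.14, and 0 to 1 of 8 arrays closest to its own number). Tissues of 1 animal can deviate separately, so this does not tell whether a number is the same animal. With the replicate block the counts of members were 7 and 8 higher for HDM in back skin and ear, and 5 for the interaction. Equal array medians moved the median of all rows from 0.01 to 0.13 in back skin, from -0.01 to -0.13 for the interaction and from 0.04 to 0.16 between sham sites, with 5063 rows higher and 2462 lower there in place of 3469 and 3124, and 1105 and 1310 in place of 1503 and 748 for the interaction. A floor at background turned most dim rows into calls (12221 lower in ear). Of the 8 sham ear arrays, 0 to 2 were above background for each of the 6 Sprr2 members and Sprr1b, which limits the size of their ear differences.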
